A study of Mus musculus with 8 samples.

Results

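The data cover 10 genes of the inflammatory programme of fibroblasts among the 39017 gene identifiers of a count table: the acute-phase and complement genes Lcn2, Saa3 and C3, the cytokine Il6, and the chemokines Cxcl1, Cxcl5, Cxcl10, Ccl2, Ccl5 and Ccl7. They were chosen by name, as NF-kB-driven genes, with earlier results of these same libraries in view. Their levels and differences are therefore given as descriptions, and no test over the 10 is made. All 10 passed the filter on low counts that left 18952 genes for testing.

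The libraries are poly(A) RNA of mouse embryonic fibroblasts, connective-tissue cells cultured from E13.5 embryos. In knockout cells the gene Mettl3, whose product catalyses the marking of mRNA with N6-methyladenosine (m6A), was removed by a Cre recombinase activated with 4-hydroxytamoxifen at 500 nM for 48 h, and loss was checked after 7 days. The control groups carry the genotype label control, and the labels say neither whether control cells also received the drug nor which alleles they carry. The 4 groups hold 2 replicates each: control total and knockout total RNA from unstressed cells, and control granule and knockout granule RNA from cells given sodium arsenite at 500 µM for 30 min, with stress granules enriched by centrifugation. Stress granules are cytoplasmic assemblies of untranslated mRNA and protein. Granule and total libraries differ in both stress and fraction, so the effects of stress and of fractionation cannot be told apart. Nothing says that replicates came from separate embryos or cultures, and the spread between them may be technical.

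NF-kB is a transcription factor held in the cytoplasm by inhibitory proteins. When receptors for microbial products, tumour necrosis factor or interleukin-1 fire, the inhibitor is destroyed and NF-kB enters the nucleus, where it switches on chemokines, cytokines and its own inhibitors. Chemokines are small secreted proteins that draw leukocytes to a tissue, and acute-phase proteins are secreted in large amounts during infection or injury. Fibroblasts are known as producers of both. Many mRNAs of this class are short-lived, and AU-rich elements in the 3′UTR are one of the signals for their decay.

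The mRNAs of the 10 genes differ in those AU-rich elements. The heptamer TATTTAT, a core of such elements, was searched on the sense strand of the 3′UTR of the principal transcript in the GENCODE annotation of build GRCm38. It occurs in 26.4% of 15362 tested protein-coding genes with a 3′UTR and in 3 of the 10: 6 times in Cxcl1, once in Il6 and once in Cxcl5. Copies were counted with overlaps, and only 0.241% of the genes have at least 6. The 30-base windows around the densest site are shown because they set Cxcl1 apart from the others, with the heptamers in capitals.
Cxcl1 3′UTR site: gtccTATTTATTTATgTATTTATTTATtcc
Il6 3′UTR site: atttatgattgaTATTTATtatttttatga
Cxcl5 3′UTR site: caaactgtatacTATTTATtaattattaac
The shorter pentamer ATTTA, which the heptamer contains, occurs in 63.7% of genes and in 6 of the 10, with 7 copies in Cxcl1, 6 in Il6, 5 in Cxcl5, 2 in Cxcl10, 2 in Ccl7 and 1 in Ccl2. It does not occur in the 3′UTR of Lcn2, Saa3, C3 or Ccl5. The principal transcripts are short, with a median length of 934 bases over the 10 and 2873 over the 15362 genes, and C3 is the exception at 5136 bases. A motif in this window is a description and no evidence that a decay factor binds there.

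Promoter windows, from 250 bases before to 50 after the start in the RefSeq table for GRCm38.p6, were present for 6 of the 10 genes: Lcn2, Saa3, C3, Il6, Cxcl1 and Cxcl10. Cxcl5, Ccl2, Ccl5 and Ccl7 have no entry. The search covered 4 motifs, the first 3 on both strands. The NF-kB consensus occurs in 4.51% of 32851 promoters and in 3 of the 6, beginning 44 bases before the start in Il6, 71 in Cxcl1, and 159 and 103 in Cxcl10. TTGCNNAA, a core of sites for C/EBP factors, occurs in 10.8% of promoters and in 4 of the 6 (Lcn2, Saa3, C3 and Il6). GAAANNGAA, a core of interferon-response elements, occurs in 8.56% and in 2 of the 6 (Saa3 and Cxcl10). TATAAA, on the sense strand only, occurs in 8.32% and in C3 alone, where it lies after the start, beginning at base 15 counted from it. The NF-kB match is therefore found in this window in both chemokines and the cytokine, and in none of the 3 acute-phase and complement genes, which all hold the C/EBP core. The promoters of Lcn2, C3, Cxcl1 and Cxcl10 are shown to contrast a pair of acute-phase and complement genes with a pair of chemokines, with NF-kB and TATAAA matches in capitals and each strand read from 5′ to 3′.
Lcn2 promoter, chr2:32387690-32387989 (- strand): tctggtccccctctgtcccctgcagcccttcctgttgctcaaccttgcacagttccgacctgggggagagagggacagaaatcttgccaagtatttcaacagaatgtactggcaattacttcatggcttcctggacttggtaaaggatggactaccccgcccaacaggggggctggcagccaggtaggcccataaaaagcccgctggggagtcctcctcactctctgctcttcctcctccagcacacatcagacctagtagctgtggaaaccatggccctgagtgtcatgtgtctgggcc
C3 promoter, chr17:57228087-57228386 (- strand): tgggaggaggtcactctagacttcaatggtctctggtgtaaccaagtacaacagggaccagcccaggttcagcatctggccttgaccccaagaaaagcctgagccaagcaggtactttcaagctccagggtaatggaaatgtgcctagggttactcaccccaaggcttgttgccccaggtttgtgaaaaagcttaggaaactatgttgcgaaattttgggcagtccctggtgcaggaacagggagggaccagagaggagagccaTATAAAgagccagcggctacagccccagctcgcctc
Cxcl1 promoter, chr5:90890995-90891294 (+ strand): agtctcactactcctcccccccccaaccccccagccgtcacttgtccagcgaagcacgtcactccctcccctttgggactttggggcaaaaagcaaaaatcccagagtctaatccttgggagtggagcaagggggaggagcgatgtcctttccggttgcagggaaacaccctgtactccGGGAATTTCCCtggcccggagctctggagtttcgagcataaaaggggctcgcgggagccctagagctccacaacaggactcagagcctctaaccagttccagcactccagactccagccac
Cxcl10 promoter, chr5:92348840-92349139 (- strand): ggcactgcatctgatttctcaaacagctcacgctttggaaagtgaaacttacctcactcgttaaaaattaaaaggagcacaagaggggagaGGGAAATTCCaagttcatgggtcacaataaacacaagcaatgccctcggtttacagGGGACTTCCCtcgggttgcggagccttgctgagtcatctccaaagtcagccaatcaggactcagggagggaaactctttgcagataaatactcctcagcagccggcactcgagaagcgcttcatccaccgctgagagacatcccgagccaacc
A match to the letters is not a bound site, and the absence of a match says nothing about a factor.

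The libraries held 67257220 to 123508539 counts. Values are CPM, a gene's counts in proportion to the library's total, scaled by the trimmed mean of M-values, and log2 fold changes come with a standard error (SE) from 1 edgeR quasi-likelihood fit of all 8 libraries. A gene is called where its p-value, adjusted over the 18952 genes by Benjamini-Hochberg, was below 0.05. Mettl3 checked the labels: it was at 25.4 and 24.9 CPM in control total, 15.7 and 15.4 in control granule, 6 and 7.35 in knockout total, and 5.56 and 6.38 in knockout granule libraries. It fell by 1.91 (SE 0.27) on the log2 scale in total RNA and by 1.38 (SE 0.26) in the granule fraction (edgeR adjusted p = 0.035 and 0.021). Another gene shares 18.38% of its exonic bases. The call in total RNA was lost without any 1 control or knockout granule library, and that in the granule fraction without any 1 granule library (edgeR adjusted p up to 0.43 and 0.19). The 2 knockout total libraries stand apart from each other. Over 10261 genes their median absolute log2 ratio was 0.813, against 0.312, 0.101 and 0.134 between the replicates of control total, control granule and knockout granule. Without knockout total replicate 1 or 2 the Mettl3 difference in total RNA was -1.77 or -1.96.

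Markers of the labelled cell type were abundant. The 10 fibroblast markers, collagens among them, summed to 4477 to 5599 CPM in control total, 5694 to 5922 in control granule, 3500 to 4182 in knockout total and 7173 to 7844 in knockout granule libraries, with none at 0. Markers of leukocytes, which also make these proteins, were low but present. The 10 macrophage markers summed to 85.4 to 113 CPM in control total, 70.8 to 80.5 in control granule, 74.9 to 83.9 in knockout total and 90.4 to 92.5 in knockout granule libraries, with none at 0. The 8 neutrophil markers summed to 29.9 to 72.9 CPM over all libraries, with at most 1 at 0. The 6 lymphocyte markers summed to 33.4 to 37.2 CPM in control total, 18.4 to 26.5 in control granule, 12 to 31.9 in knockout total and 21.9 to 45.2 in knockout granule libraries, with at most 1 at 0. The fibroblast and macrophage sums were thus lower in knockout than in control total libraries and higher in knockout than in control granule libraries. Not every marker followed its sum. In total RNA the log2 knockout difference was above 0 for Postn (1.71), Pdgfra (0.35), Dcn (0.19), Col1a2 (0.01), Cd14 (0.03) and Cd68 (0.01). In the granule fraction Vim was lower by 1.34 (SE 0.28, edgeR adjusted p = 0.027) and Cd14 by 0.14 (SE 0.31). The lymphocyte sum was lower in knockout total libraries, and the neutrophil sums of the groups overlapped. The sum of the 6 endothelial markers was higher in knockout libraries of both fractions. It was 14.5 to 16.4 CPM in control total and 23.6 to 24.7 in knockout total libraries. In granule libraries it was 6.69 to 8.96 in control and 14.5 to 16.8 in knockout cells. Single endothelial markers did not move alike. In total RNA the log2 knockout difference was 2.45 for Vwf, 0.64 for Kdr, 0.25 for Tek and 0.14 for Emcn. For Cdh5 and Pecam1 it was -0.20 and -0.37. In the granule fraction Cdh5 alone was below 0 (-0.28), and Vwf was highest (2.59). Epithelial markers summed to 359 to 453 CPM in control total and 153 to 184 in knockout total libraries. In granule libraries they summed to 736 to 885 in control and 591 to 787 in knockout cells, which overlap. There the log2 knockout difference was below 0 for Krt5 (-0.43), Krt14 (-0.28) and Krt18 (-0.23). It was above 0 for Epcam (0.51), Cdh1 (0.46) and Krt8 (0.23). The part of these cells in the values below was not tested. In bulk RNA, more cells of a type and more RNA per cell cannot be told apart.

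**Figure D1:**
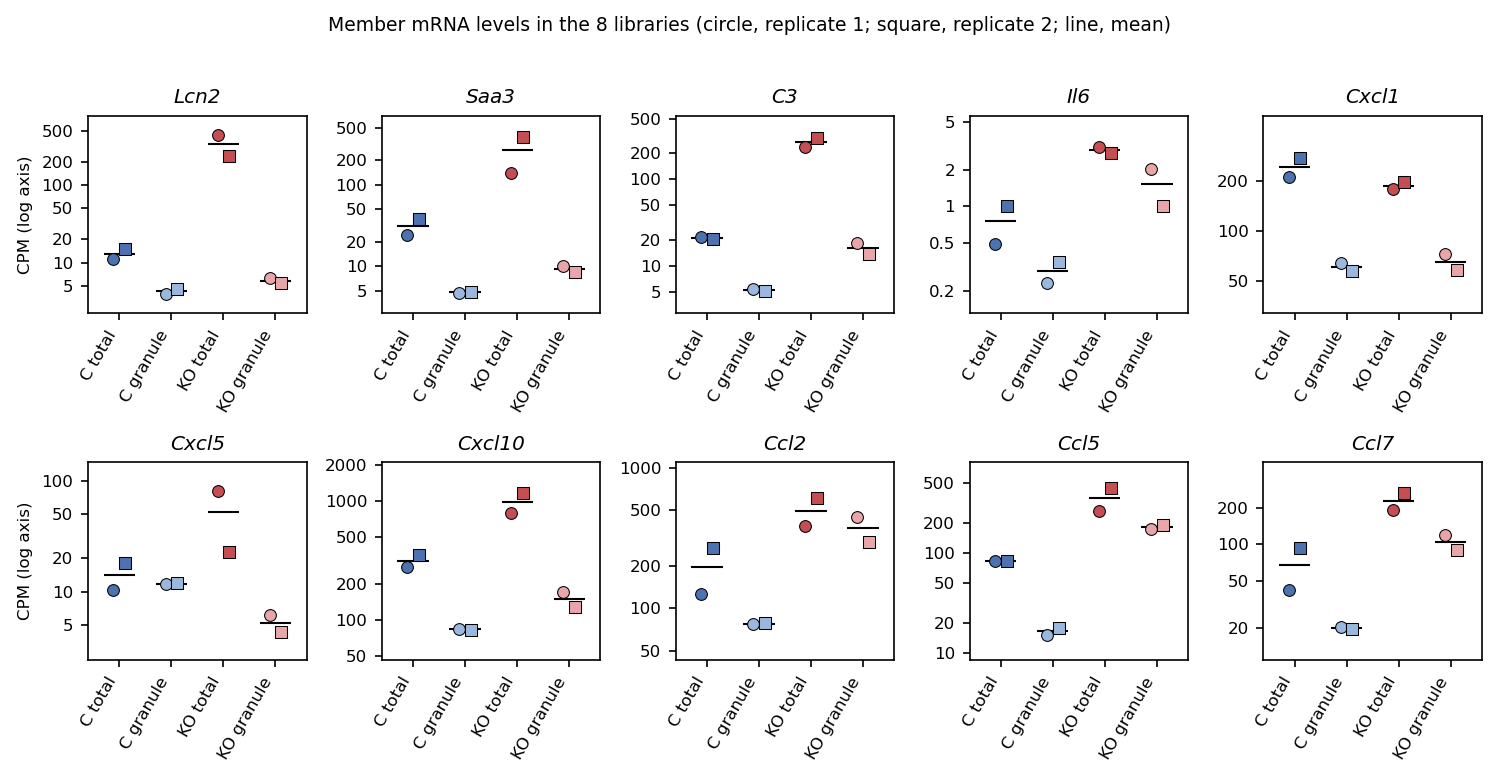
Level of each of the 10 mRNAs in the 8 libraries, in CPM on a log axis (C, control; KO, knockout; circles, replicate 1; squares, replicate 2; lines, mean of 2). The knockout total mean is the highest of the 4 for 9 genes, and only for Cxcl1 do both knockout total libraries lie below both control total libraries.

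The 10 mRNAs ranged widely in level. Divided by the merged exon length of each gene, control total RNA held most Ccl2 (174 ± 89.2 CPM per kb, SD, n = 2), then Cxcl10 (140 ± 23.9), Cxcl1 (130 ± 24.3), Ccl5 (87.4 ± 0.35) and Ccl7 (84.8 ± 46.2). The first 3 do not differ beyond their spread, nor do Ccl5 and Ccl7. Far below came Saa3 (12 ± 3.66), Cxcl5 (7.57 ± 2.93), Lcn2 (4.94 ± 1.04) and C3 (4.09 ± 0.213), where each neighbour in the order is within the spread of the next. Il6 was lowest at 0.309 ± 0.154 CPM per kb. In knockout total RNA the order began with Cxcl10 (437 ± 117), Ccl2 (434 ± 140), Ccl5 (374 ± 136) and Ccl7 (289 ± 65.3), which overlap, and went on with Lcn2 (130 ± 53.7), Saa3 (102 ± 68.6), Cxcl1 (99.9 ± 7.37), C3 (52.5 ± 8.53), Cxcl5 (28.2 ± 22.6) and Il6 (1.21 ± 0.104). By means Lcn2 stood 8th in control and 5th in knockout total RNA, but it overlaps Saa3 and Cxcl1 in knockout cells and was below both in knockout total replicate 2. In the knockout granule fraction the 5 chemokines Ccl2 (325 ± 90.8), Ccl5 (191 ± 11.3), Ccl7 (132 ± 26.2), Cxcl10 (67.4 ± 13.8) and Cxcl1 (34.9 ± 5.23) led in that order, each apart from the next by more than their SDs. Saa3, C3, Cxcl5 and Lcn2 followed at 3.59 to 2.23 CPM per kb. Merged exons exceed the principal transcript for some genes (2623 against 915 bases for Lcn2), so these levels depend on the length used. All libraries counted, the 10 genes together held 808 and 1168 CPM in control total, 288 and 284 in control granule, 2721 and 3653 in knockout total, and 1028 and 800 in knockout granule libraries.

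Knockout and control cells were first compared in unstressed total RNA. Loss of Mettl3 cannot be told apart from the drug or Cre treatment if control cells did not receive them. The acute-phase and complement genes had the largest differences. Lcn2, which encodes lipocalin 2, a secreted protein that binds bacterial iron carriers, was at 11 and 14.9 CPM in control and 440 and 241 CPM in knockout total libraries. Both knockout libraries lay far above both controls, a difference of 4.72 on the log2 scale (SE 0.39), or 26.3-fold between means. C3, the central component of complement, was at 21.8 and 20.3 CPM in control and 239 and 301 in knockout libraries, a log2 difference of 3.68 (SE 0.30). Saa3, a serum amyloid A protein made by cells outside the liver, was at 24.4 and 37.9 CPM in control and at 138 and 391 in knockout libraries. The knockout replicates were far apart but above both controls, and the log2 difference was 3.09 (SE 0.50).

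The chemokines that attract monocytes and T cells were also higher in knockout total RNA, by smaller amounts. Ccl5, which attracts T cells and monocytes, was at 84.1 and 83.6 CPM in control and 267 and 452 in knockout total libraries (log2 difference 2.10, SE 0.31). Ccl7, a ligand of Ccr2 and other receptors, was at 41.7 and 94.1 CPM in control and 194 and 268 in knockout libraries (1.77, SE 0.41). Ccl2, the main ligand of Ccr2, was at 126 and 269 CPM in control and 382 and 606 in knockout libraries (1.32, SE 0.42). The control replicates of Ccl2 and Ccl7 were themselves far apart, without reaching the knockout libraries. Cxcl10, a ligand of Cxcr3, was at 278 and 354 CPM in control and 798 and 1171 in knockout libraries (1.64, SE 0.30).

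The neutrophil-attracting chemokines Cxcl1 and Cxcl5 are ligands of Cxcr2. Cxcl1 was at 211 and 275 CPM in control and 178 and 197 in knockout total libraries, the only one of the 10 below control (log2 difference -0.38, SE 0.26). Cxcl5 was at 10.3 and 18 CPM in control and 82.3 and 22.8 in knockout libraries, so that 1 knockout library held most of its difference of 1.90 (SE 0.58). Il6, a cytokine that signals through gp130, was scarce: 0.485 and 1.01 CPM in control and 3.12 and 2.76 in knockout libraries, with counts of 33 to 347 (log2 difference 1.96, SE 0.50).

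Over the 10 genes the median log2 difference in total RNA was 1.93, beside 0.02 over all 18952 genes. Both knockout libraries were above both controls for 9 of the 10 and for 24.4% of all genes. Called higher were 3 of the 10 (Lcn2, C3 and Ccl5) and called lower 0, where the shares over all genes were 0.274% and 0.137%. Since the members were picked on these libraries, nothing is read from the counts. The 3 calls rest on the spread shared by all 8 libraries: edgeR called 0 of the 10 without control total replicate 1 or 2, control granule replicate 1 or 2, or knockout granule replicate 1 or 2 (7 to 9 at an unadjusted p under 0.05), but 8 without knockout total replicate 1 and 9 without replicate 2. When only these 4 libraries were fitted, edgeR called 0, with 9 at an unadjusted p under 0.05, and DESeq2 on all 8 libraries called 9. Without knockout total replicate 1 or 2, the log2 difference was 4.22 or 5.19 for Lcn2, 3.84 or 3.61 for C3, 3.65 or 2.26 for Saa3, 2.43 or 1.78 for Ccl5, 1.98 or 1.62 for Ccl7, 1.62 or 1.06 for Ccl2, 1.89 or 1.44 for Cxcl10, 1.87 or 2.15 for Il6 and -0.30 or -0.35 for Cxcl1. Cxcl5 moved to 0.69 or 2.65. Without control total replicate 1 or 2, it was 0.87 or 2.03 for Ccl2, 1.30 or 2.53 for Ccl7, 1.53 or 2.66 for Il6, 2.80 or 3.48 for Saa3 and -0.56 or -0.11 for Cxcl1.

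In the granule fraction of stressed cells 8 of the 10 mRNAs were again higher in both knockout libraries than in both controls, with another order of sizes. Ccl5 was at 15.4 and 17.9 CPM in control granule and 176 and 191 in knockout granule libraries, a log2 difference of 3.46 (SE 0.33), the largest of the 10 in this fraction. Ccl7 was at 20.4 and 19.6 CPM in control and 120 and 90.6 in knockout granule libraries (2.40, SE 0.42). Ccl2 was at 77.4 and 78.7 CPM in control and 443 and 297 in knockout granule libraries (2.24, SE 0.43). For these 3 monocyte and T cell attractants, every knockout library was at least several times the highest control. Il6 was at 0.233 and 0.343 CPM in control and 2.05 and 1.01 in knockout granule libraries (2.40, SE 0.52; 1.75 without knockout granule replicate 1), from 24 to 225 counts.

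The acute-phase and complement genes showed little or less of their difference here. Lcn2 was at 3.96 and 4.6 CPM in control granule and 6.22 and 5.49 in knockout granule libraries, a log2 difference of 0.45 (SE 0.34). Saa3 was at 4.77 and 4.79 CPM in control and 10.2 and 8.52 in knockout granule libraries (0.97, SE 0.47). C3 was at 5.46 and 5.11 CPM in control and 18.5 and 13.6 in knockout granule libraries (1.60, SE 0.27). All 3 had knockout libraries above controls, but Lcn2 was 1.37-fold higher between means in granule against 26.3-fold in total RNA. Cxcl10 was at 84.2 and 83.4 CPM in control and 174 and 130 in knockout granule libraries (0.86, SE 0.30). Cxcl1 was at 64.4 and 57.5 CPM in control and 72.4 and 58.5 in knockout granule libraries (0.10, SE 0.26), with overlapping groups and a sign that turned without control granule replicate 2 (-0.04) or knockout granule replicate 1 (-0.11). Cxcl5 was the only one lower in knockout granule libraries, at 6.13 and 4.33 CPM against 11.7 and 11.9 (log2 difference -1.18, SE 0.57).

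The median over the 10 in the granule fraction was 1.29, beside 0.08 over all genes. Both knockout granule libraries were above both controls for 8 of the 10 and for 40.4% of all genes. When only these 4 libraries were fitted, edgeR called 8 of the 10 higher and 1 lower (Cxcl5), where 5263 and 5096 of all genes were called. In the fit of all 8 libraries, whose spread includes the knockout total libraries, called higher were 5 (Ccl5, Ccl7, Ccl2, Il6 and C3) and called lower 0. The shares over all genes there were 5.79% and 3.66%, and again nothing is read from the counts. The number called was 0 without control granule replicate 1 or 2 (5 at an unadjusted p under 0.05), 1 without knockout granule replicate 1 or 2, and 8 without knockout total replicate 1 or 2.

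**Figure D2:**
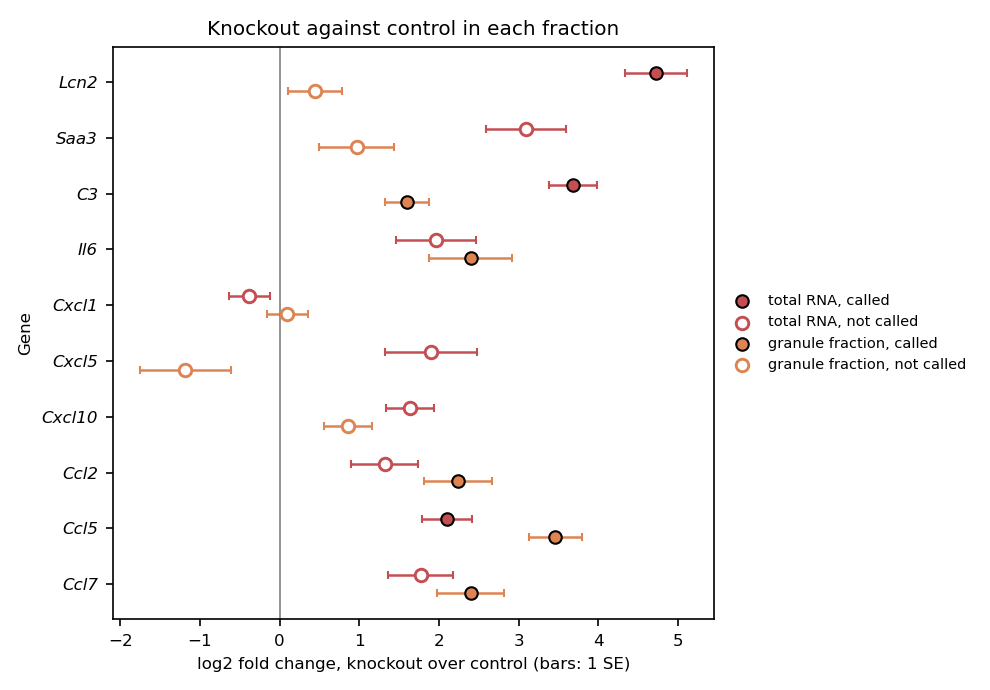
Log2 fold change of knockout over control for each of the 10 mRNAs in total RNA (red) and in the granule fraction (orange), from 1 fit of 8 libraries; bars are 1 SE and filled points are called. Lcn2, Saa3, C3, Cxcl5 and Cxcl10 lie farther right in total RNA (4.72, 3.09, 3.68, 1.90 and 1.64). Ccl2, Ccl5, Ccl7, Il6 and Cxcl1 do so in the granule fraction (2.24, 3.46, 2.40, 2.40 and 0.10). Of these gaps between fractions only that of Lcn2 was called.

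Granule and total libraries were then compared within each genotype, which gives the ratio behind the pattern above. In control cells all 10 mRNAs had lower means in the granule libraries of stressed cells than in total RNA of unstressed cells. The control values of both fractions stand in the paragraphs above. The log2 difference was -2.70 (SE 0.50) for Saa3, -2.34 (SE 0.31) for Ccl5, -2.00 (SE 0.28) for C3, -2.00 (SE 0.27) for Cxcl1 and -1.91 (SE 0.30) for Cxcl10. It was -1.76 (SE 0.41) for Ccl7, -1.60 (SE 0.35) for Lcn2, -1.38 (SE 0.51) for Il6 and -1.34 (SE 0.42) for Ccl2. Cxcl5 alone had overlapping groups, with -0.25 (SE 0.56), which turned to 0.25 without control total replicate 2. Without control total replicate 1 or 2 the difference was -1.78 or -0.65 for Ccl2, -1.80 or -0.71 for Il6 and -2.23 or -1.02 for Ccl7. The median of the 10 was -1.84, beside -0.06 over all genes. Both granule libraries were below both total libraries for 9 and for 37.3% of all genes. Called lower were 7 and called higher 0, beside 4.17% and 5.89% of all genes. The number called was 0 without control total replicate 1 or 2 or control granule replicate 1 or 2 (7 to 9 at an unadjusted p under 0.05), 4 without knockout granule replicate 1 or 2, and 9 without knockout total replicate 1 or 2.

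In knockout cells the range was wide. Lcn2 went from 440 and 241 CPM in total to 6.22 and 5.49 in granule libraries, 58.2-fold lower between means and -5.86 (SE 0.41) on the log2 scale. Saa3 differed by -4.82 (SE 0.54), C3 by -4.07 (SE 0.30), Cxcl5 by -3.33 (SE 0.61) and Cxcl10 by -2.70 (SE 0.31). The 3 Ccl genes were far nearer to their total level. Ccl2, at 382 and 606 CPM in total and 443 and 297 in granule libraries, had overlapping groups and a difference of -0.42 (SE 0.41). Ccl5 differed by -0.97 (SE 0.30), Ccl7 by -1.13 (SE 0.40), Il6 by -0.94 (SE 0.48) and Cxcl1 by -1.52 (SE 0.27). The median was -2.11, beside 0.04 over all genes. Granule libraries were below total libraries for 9 of the 10 and for 26.5% of all genes, and 6 were called lower and 0 higher, beside 8.47% and 9.17%. The number called was 2 without knockout granule replicate 2, and 0 by edgeR when only these 4 libraries were fitted (8 at an unadjusted p under 0.05), beside 8 by DESeq2 on all libraries. Without knockout total replicate 1 or 2 the difference was -5.37 or -6.36 for Lcn2, -5.39 or -4.02 for Saa3, -4.24 or -4.03 for C3, -2.13 or -4.10 for Cxcl5 and -2.95 or -2.52 for Cxcl10. It was -0.72 or -0.17 for Ccl2, -1.31 or -0.67 for Ccl5, -1.35 or -1.01 for Ccl7, -0.86 or -1.16 for Il6 and -1.60 or -1.57 for Cxcl1. The number called was 8 without either.

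**Figure D3:**
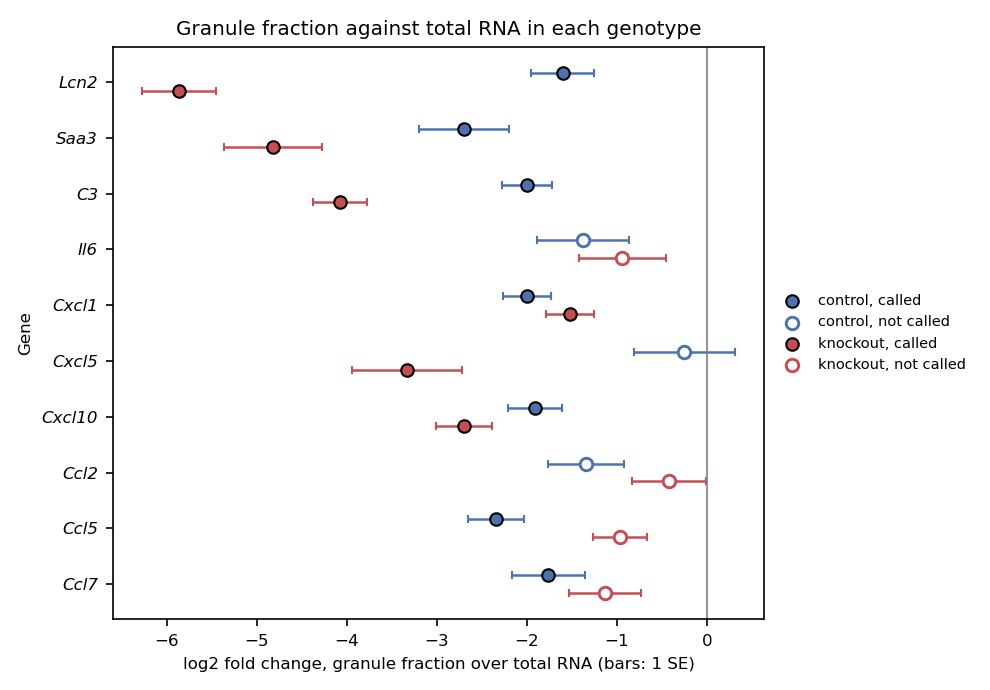
Log2 fold change of the granule fraction over total RNA for each of the 10 mRNAs in control (blue) and knockout (red) cells; bars are 1 SE and filled points are called. Control values span -2.70 to -0.25, knockout values -5.86 to -0.42.

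The difference between these ratios is the interaction of genotype and fraction. It was -4.27 (SE 0.50) for Lcn2, -3.07 (SE 0.81) for Cxcl5, -2.12 (SE 0.66) for Saa3, -2.08 (SE 0.38) for C3 and -0.78 (SE 0.42) for Cxcl10, where the granule to total ratio was lower in knockout cells. Values above 0 belonged to Ccl5 (1.37, SE 0.42), Ccl2 (0.92, SE 0.59), Ccl7 (0.63, SE 0.56), Cxcl1 (0.48, SE 0.37) and Il6 (0.44, SE 0.69). Without knockout total replicate 1 or 2 the interaction was -3.78 or -4.81 for Lcn2, -1.88 or -3.89 for Cxcl5, -2.70 or -1.35 for Saa3, -2.25 or -2.08 for C3 and -1.05 or -0.65 for Cxcl10. It was 1.02 or 1.62 for Ccl5, 0.61 or 1.12 for Ccl2, 0.40 or 0.71 for Ccl7, 0.39 or 0.38 for Cxcl1 and 0.52 or 0.19 for Il6. The values of Lcn2, Saa3, C3, Cxcl5 and Cxcl10 stayed below 0, and those of Ccl5, Ccl2 and Cxcl1 above 0, without any 1 library. Ccl2 and Cxcl1 came down to 0.15 and 0.14 without control total replicate 2. The median of the 10 was -0.17, beside 0.09 over all genes. Lcn2 alone was called lower and 0 were called higher, beside 0.116% and 0.401% of all genes. The number called by edgeR was 0 without any single control library or knockout granule replicate 1 or 2 (4 or 5 at an unadjusted p under 0.05), 6 without knockout total replicate 1 and 5 without replicate 2. The sign turned for Il6, to -0.33 without control total replicate 2 and -0.28 without knockout granule replicate 1, and for Ccl7, to -0.20 without control total replicate 2.

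Across the 8 libraries the members formed loose groups, as Pearson's r of log2 CPM, a description over libraries that share groups and depth. Saa3 and Cxcl10 were most alike (r = 0.993), followed by Ccl2 and Ccl7 (0.98), Il6 and Ccl7 (0.974), and Lcn2 and C3 (0.967). Cxcl5 was least like Ccl2 (0.224) and Ccl5 (0.241). Among 10252 other genes averaging 5 CPM or more, those most like the mean of the 10 standardized profiles were Gm43302 (0.988), Avil (0.985), Mx1 (0.985), Zbtb21 (0.982), Znfx1 (0.98), Isg20 (0.979), Parp12 (0.979) and Oas3 (0.978). Mx1, a dynamin-like antiviral GTPase, had means of 8.09, 1, 48.6 and 7.53 CPM in control total, control granule, knockout total and knockout granule libraries. For Lcn2 alone the 5 most alike were Plscr2 (0.983), Parp11 (0.981), Xdh (0.98), Phf11b (0.976) and Gab2 (0.973). Plscr2 had means of 55.3, 26.4, 259 and 24.5 CPM in the same order.

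The chemokine members lie near other chemokine genes on chromosomes 5 and 11. Cxcl10 lies apart from Cxcl1 and Cxcl5, and Ccl5 apart from Ccl2 and Ccl7. The neighbours are given with their knockout differences in total RNA and then in the granule fraction. On chromosome 5, Cxcl2 lies 10.8 kb from Cxcl1 and had -0.09 and -0.01, where Cxcl1 had -0.38 and 0.10. Cxcl3, between Cxcl1 and Cxcl5, had 0.00 and 0.06. Ppbp, 6.89 kb from Cxcl5, had -0.73 and -3.56. Further along the chromosome, Cxcl9 and Cxcl11 flank Cxcl10 within 18.6 kb and were higher in knockout cells as Cxcl10 was, none of these called. Cxcl9 was higher by 4.25 and 1.5 and Cxcl11 by 2.83 and 1.93, with 41.7% of the exonic bases of Cxcl11 shared with another gene. The knockout total libraries differ strongly for Cxcl9. Its granule to total difference in knockout cells was -4.91, and -3.18 or -5.80 without knockout total replicate 1 or 2. Replicate 1 thus held more of the 4.25. On chromosome 11, Ccl2 and Ccl7 lie 8.26 kb apart, and Ccl11, 10.3 kb from Ccl7, had 1.52 and 2.74, the latter called, beside 1.32 and 2.24 for Ccl2 and 1.77 and 2.40 for Ccl7. In the same stretch Ccl8 had 0.54 and 1.34, Ccl12 -0.88 and 0.81, and Ccl1 -0.46 and 2.26, none called. Ccl12 had only 4 to 14 counts per library and Ccl1 0 to 14. The neighbours of Ccl5 (Ccl3, Ccl4, Ccl6 and Ccl9) had -0.88 to 0.07 in total RNA and -0.61 to 0.48 in the granule fraction, where Ccl5 had 2.10 and 3.46. Few stretches of the members occur in other genes: 1.779% of the 50-base stretches of the Saa3 transcript occur in another gene, Saa1, 0.8713% of those of Cxcl5 occur elsewhere, and 0 for the other 8. For Cxcl10, 5.906% of the exonic bases are shared with another gene, and whether counting used strand is not given in the sources used here.

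Genes around the members in the same pathways were taken from 9 lists by role, 190 genes of which 174 were tested. In the knockout granule fraction 24 of the 174 were called higher and 4 lower than in control, beside 5.79% and 3.66% of all genes, and in knockout total RNA 5 and 0, beside 0.274% and 0.137%. Between granule and total RNA, 11 were higher and 28 lower in control cells, beside 5.89% and 4.17% of all genes, and 6 and 26 in knockout cells, beside 9.17% and 8.47%. The counts of genes higher in granules were thus near or below the share over all genes. These counts move with single libraries, and so do the calls of single genes given below. The knockout count of 28 in granules was 0 without control granule replicate 1 or 2, 18 or 16 without control total replicate 1 or 2, 2 or 7 without knockout granule replicate 1 or 2, and 85 or 84 without knockout total replicate 1 or 2. The count of 5 in total RNA was 39 or 83 without knockout total replicate 1 or 2 and 0 without any other single library. The control count of 39 between fractions was 7 or 0 without control total replicate 1 or 2, 0 without control granule replicate 1 or 2, 15 or 16 without knockout granule replicate 1 or 2, and 104 or 100 without knockout total replicate 1 or 2. The knockout count of 32 was 5 or 3 without knockout granule replicate 1 or 2 and 70 or 82 without knockout total replicate 1 or 2.

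Calls among receptors for the secreted members between genotypes were near the shares over all genes. Of the 23 receptor genes listed 21 were tested. Cxcr1, with at most 0.108 CPM, was not. Ccr2 was at 0.352 to 1.28 CPM, Cxcr2 at 0.368 to 1.31 and Cxcr3 at 0.176 to 0.841 over the 8 libraries. Il6st, which encodes the shared signalling chain gp130, was at 101 to 188 CPM in the 8 libraries, and Il6ra, its partner in binding interleukin-6, at 12.5 to 31. Of the 21 receptor genes 2 were called higher and 0 lower in the knockout granule fraction, near the 5.79% and 3.66% of all genes. In total RNA edgeR called 0 (3 at an unadjusted p under 0.05, 2 by DESeq2), near the 0.274% higher and 0.137% lower of all genes. Tlr2, a receptor for bacterial lipoproteins that also answers to serum amyloid A, rose by 2.59 (SE 0.29, edgeR adjusted p = 0.0052), from 5.95 and 6.71 CPM to 44.7 and 31.4. Ackr3, a scavenging chemokine receptor, rose by 2.36 (SE 0.37, edgeR adjusted p = 0.012), from 0.437 and 0.554 to 2.96 and 2.14 CPM.

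Other secreted factors were called in both directions. Of 24 other chemokine ligands, 2 were called higher and 2 lower in the knockout granule fraction, near the 5.79% and 3.66% of all genes. Cx3cl1, the membrane-bound chemokine fractalkine, rose by 1.94 (SE 0.45, edgeR adjusted p = 0.037). Cxcl12, a homeostatic chemokine made by fibroblasts, fell by 1.19 (SE 0.25, edgeR adjusted p = 0.027), and Ppbp fell by 3.56 (SE 0.83, edgeR adjusted p = 0.038). Of 16 other cytokines only Il15 was called there, near the share over all genes, and was higher by 1.44 (SE 0.36, edgeR adjusted p = 0.046). The NF-kB-activating cytokines Tnf and Il1b were at 0.961 to 2.25 and 6.43 to 18.4 CPM, with knockout differences of -0.03 and -0.08 in total RNA.

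Other acute-phase and complement genes were called more often in 1 direction. Of 22 tested, 2 were called higher in knockout total RNA and 5 in the granule fraction, beside 0.274% and 5.79% of all genes, with 0 lower in either, beside 0.137% and 3.66%. C1ra and C1s1, proteases of the first complement component, rose in both. C1ra was at 19.9 and 21.1 CPM in control and 109 and 97.9 in knockout total libraries, and at 7.48 and 6.5 against 66.6 and 46.4 in granule libraries. It rose by 2.34 (SE 0.29, edgeR adjusted p = 0.027) in total RNA and by 3.01 (SE 0.29, edgeR adjusted p = 0.0037) in the granule fraction. C1s1 rose by 2.74 (SE 0.35, edgeR adjusted p = 0.032) and 2.99 (SE 0.36, edgeR adjusted p = 0.0061), and 18.41% of its exonic bases are shared with another gene. Without knockout total replicate 1 or 2 the total RNA value was 2.26 or 2.52 for C1ra and 2.49 or 3.06 for C1s1. Cp, the copper carrier ceruloplasmin, rose by 2.91 (SE 0.53, edgeR adjusted p = 0.019) in the granule fraction. Ptx3, a secreted pattern-recognition protein, fell between total and granule libraries by 3.09 (SE 0.42) in control and 4.56 (SE 0.45) in knockout cells (edgeR adjusted p = 0.0096 and 0.0026). Saa1 and Saa2, the liver forms of the family, had at most 12 counts in a library and were not tested.

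Calls among the NF-kB machinery were near the shares over all genes. Of its 36 genes edgeR called 0 between genotypes in total RNA, beside 0.274% of all genes called higher and 0.137% lower. There 11 of the 36 had an unadjusted p under 0.05 and 6 were called by DESeq2, and their median log2 difference was 0.13. In the granule fraction 3 were called higher and 1 lower, near the 5.79% and 3.66% of all genes. Nfkbia, the classical inhibitor and a direct NF-kB target, rose by 1.47 (SE 0.25, edgeR adjusted p = 0.015), from 188 and 200 to 535 and 540 CPM, and Nfkbie, another inhibitor, by 1.45 (SE 0.33, edgeR adjusted p = 0.034). Bcl3, a nuclear co-factor, rose by 1.76 (SE 0.29, edgeR adjusted p = 0.014). Nfkbia was at 133 and 105 CPM in control and 131 and 112 in knockout total libraries, which overlap. The subunit gene Rela was at 208 to 306 CPM in all 8 libraries and Nfkb1 at 53.8 to 126. Of 16 other NF-kB targets edgeR called 0 in total RNA (5 at an unadjusted p under 0.05, 4 by DESeq2) and 1 in the granule fraction. These counts are also near the shares over all genes. The 1 called was Marcks, higher by 1.54 (SE 0.32, edgeR adjusted p = 0.027). Of 14 genes of gp130, STAT3 and C/EBP signalling, only Cebpa was called in the granule fraction, again near the share over all genes. It was higher by 1.72 (SE 0.34, edgeR adjusted p = 0.024). Cebpb and Cebpd, C/EBP factors of the acute-phase response, had knockout differences of 0.59 and 0.55 in total RNA, with knockout replicates at 84.1 and 242 CPM and 72.7 and 186 CPM.

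Among the 9 lists, the 10 members aside, genes of interferon signalling had the largest share of calls in each comparison given next. Of 15, 3 were called higher in knockout total RNA and 9 in the granule fraction, beside 0.274% and 5.79% of all genes. Between total and granule libraries 11 were called lower in control and 9 in knockout cells, beside 4.17% and 8.47% of all genes. Irf7, an inducible regulator of interferon genes, was at 8.87 and 8.19 CPM in control and 212 and 210 in knockout granule libraries, and rose by 4.63 (SE 0.41, edgeR adjusted p = 0.003). Mx1 rose by 2.59 (SE 0.38, edgeR adjusted p = 0.04) in total RNA, and by 2.50 or 2.77 without knockout total replicate 1 or 2. Cxcl10, its neighbours Cxcl9 and Cxcl11, and Ccl5 are also known to answer to interferon.

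Of 13 factors that control the decay of inflammatory mRNAs, 4 were called higher and 1 lower in granule than in total libraries of control cells, and 1 and 0 in knockout cells, beside 5.89% and 4.17%, and 9.17% and 8.47%, of all genes. Their median log2 difference was 0.79 in control and -0.20 in knockout cells. Zfp36, which binds AU-rich elements and promotes decay, rose by 2.12 (SE 0.28) in control and 1.72 (SE 0.28) in knockout cells (edgeR adjusted p = 0.0086 and 0.0074). Its relative Zfp36l2 rose by 1.81 (SE 0.27, edgeR adjusted p = 0.011) in control cells, from 133 and 165 to 560 and 483 CPM. In knockout cells it was at 430 and 337 CPM in total and 228 and 201 in granule libraries, and its interaction was -2.65 (SE 0.37, edgeR adjusted p = 0.04). Zfp36l2 was the 1 pathway gene called for the interaction. That call was lost without either control total, control granule or knockout granule library, at an edgeR adjusted p of 0.16 to 0.32, and the value was -2.47 or -2.98 without knockout total replicate 1 or 2. Zc3h12a, an endonuclease of Il6 mRNA, was at 18 to 49.3 CPM with no call between genotypes.

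**Figure D4:**
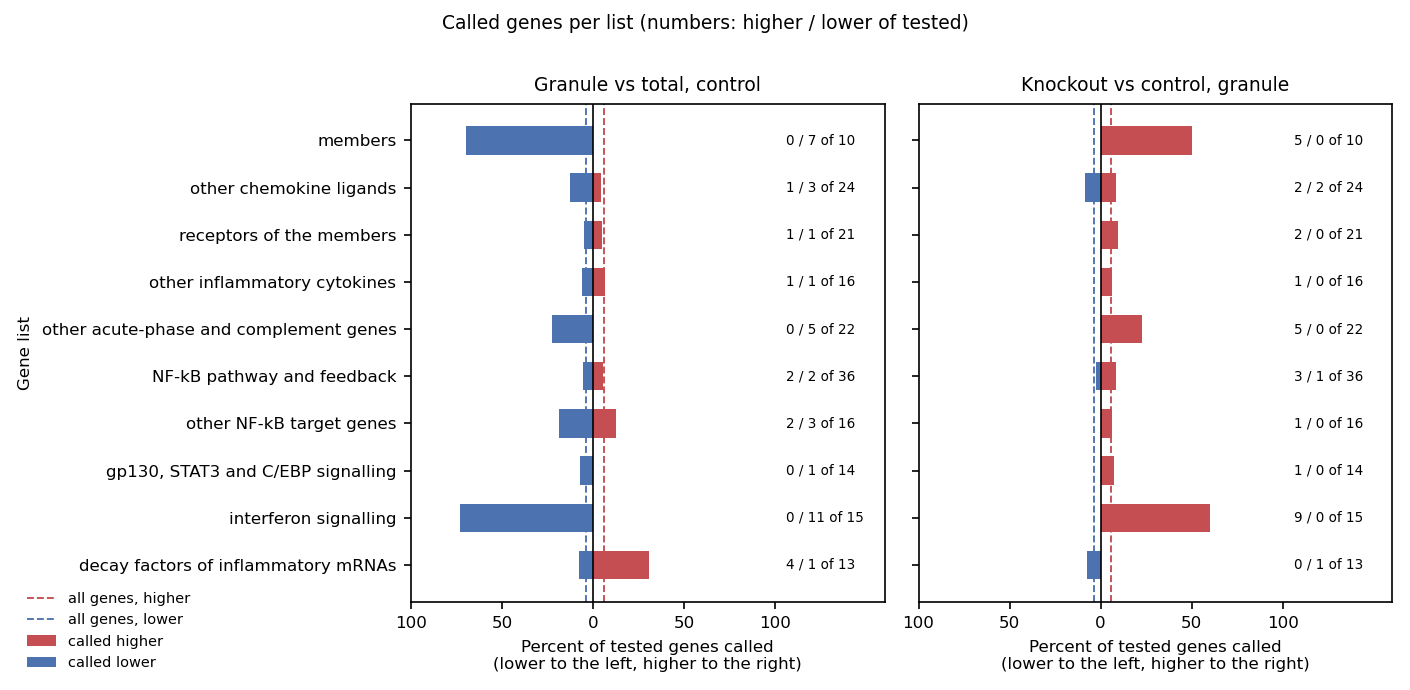
Percent of the tested genes of each list called higher (red, right) or lower (blue, left) in control granule against total libraries and in knockout against control granule libraries, with the counts at the right; dashed lines are the shares over all genes (5.89% and 4.17%, and 5.79% and 3.66%). The interferon list shows the largest shares, 11 of 15 lower and 9 of 15 higher.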

How the data were processed

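Gene counts were deposited by the authors as whole numbers per Ensembl gene for 8 libraries in 1 table. STAR, DESeq2, GRCm38 and mm10 are named in the submitters' processing notes without role or version, and how reads were counted is not given in the sources used here. Of 39017 identifiers, 37693 matched GENCODE for GRCm38, which supplied symbols, positions and transcripts. The unmatched ones held 0.167% to 0.221% of the counts.

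The members and gene lists were chosen with earlier results of these data known. Counts were fitted with edgeR 4.0.16 in R 4.3.3 (quasi-likelihood, robust, TMM, expression filter over 4 groups) with 1 mean per group and 4 residual degrees of freedom. There were 5 contrasts, each adjusted by Benjamini-Hochberg over 18952 genes. Fold changes used a prior count of 0.125 and log2 CPM one of 2. The SE is the fold change divided by the root of F. The script was tested on simulated data. A floor of 3 counts was 0.0264 to 0.0441 CPM per library and covers counting error only. Named were the members, up to 3 called genes per list and contrast averaging at least 1 CPM (largest change first), Mettl3, and receptors and NF-kB, C/EBP and decay factors listed in the naming rule. The neighbours of the chemokine genes were named by position. Alternatives were other scalings, no filter, DESeq2 1.42.0, a replicate block, fewer groups and leaving out each library. RefSeq proteins were not used here, and 1 receptor gene is not reported here.

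Same-numbered replicates did not deviate together (r = -0.254 to 0.0954 over 6 pairs of groups and 18952 genes), so the numbers were not taken as pairs.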

Additional observations from a re-analysis of the deposited data

Results flagged for a closer look

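The granule to total ratio differed between genotypes for 2 of the genes described, by the interaction term of the edgeR fit. For Lcn2 the ratio was lower in knockout cells by a log2 difference of -4.27 (SE 0.50, edgeR adjusted p = 0.037, 0.32 at the highest over the alternatives). Both knockout total libraries (440 and 241 CPM) were far above the other 6 libraries, and the choice of Lcn2 rests on these same values. For Zfp36l2 the difference was -2.65 (SE 0.37, edgeR adjusted p = 0.04). Its granule libraries were above total libraries in control cells (560 and 483 against 133 and 165 CPM) and below them in knockout cells (228 and 201 against 430 and 337 CPM). No group holds enough libraries for a search for single outlying values.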

How the results depend on the processing

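Of the alternative values for single differences of the 10 genes, 566 kept their direction and side of the threshold, 100 lost a call, 68 gained one and 6 changed sign. Library size alone gave 37 genes and 2 pathway genes for knockout against control in total RNA, and no other count moved by over 1.5 times with scaling. Counts below are given in 1 order: granule against total in control cells, the same in knockout cells, knockout against control in total RNA, the same in granules, and the interaction. Without the expression filter the genes called were 4001, 5161, 3407, 3404 and 3476 and the pathway genes 60, 57, 47, 50 and 42. With DESeq2 they were 4032, 5091, 2437, 3381 and 2724, and 61, 50, 40, 51 and 32. Members called in total RNA were 9 under both, and for the interaction 4 and 5. With only the groups compared in the fit (not possible for the interaction), genes called were 7354, 0, 0 and 10359 and pathway genes 95, 0, 0 and 108. Members were 0 between fractions in knockout cells, 0 between genotypes in total RNA and 9 in granules. The edgeR counts of 0 genes came with 4363 and 1766 at an unadjusted p under 0.05. With the replicate block the genes called were 581, 1898, 0, 670 and 0. Pathway genes were 19 between fractions in control cells, 0 between genotypes in total RNA, 18 in granules and 0 for the interaction, and members 0 in total RNA and for the interaction. There edgeR gave 3474 genes in total RNA and 3923 for the interaction at an unadjusted p under 0.05. The numbers do not pair the libraries, so the block is only another fit. Control total and knockout total replicates deviated oppositely (r = -0.254), and a block with crossed numbers, added after seeing the data, called 94 genes and 3 members. Leaving out 1 library at a time, genes called ranged over 0 to 8118, 243 to 9707, 0 to 9627, 0 to 7834 and 0 to 9349. Pathway genes ranged over 0 to 104, 3 to 82, 0 to 83, 0 to 85 and 0 to 82, and members over 0 to 9, 2 to 8, 0 to 9, 0 to 8 and 0 to 6. Signs turned only there, and only for differences not called: the interactions of Il6 (-0.33 to 0.86) and Ccl7 (-0.20 to 1.09), Cxcl1 between genotypes in granules (-0.11 to 0.24) and Cxcl5 between fractions in control cells (-0.60 to 0.25). Il6 had -0.28 without knockout granule replicate 1 and Cxcl1 -0.04 without control granule replicate 2. A lone library is assumed to vary like the other groups. These fits hold fewer libraries, and beyond that the cause was not tested. Depth limits Il6, with 24 to 347 counts per library.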
